A study of Mus musculus with 8 samples.

Results

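Rnf180, Epb41l4a and St3gal6 are 3 of the 9140 genes measured in cultured mouse hippocampal neural progenitor cells that carried the Kmt2d+/βgeo allele or were wild type. The 3 genes were chosen by their lower level in the Kmt2d+/βgeo cultures in these same data, so the difference between the genotypes is described here and not tested. All 3 were far lower in Kmt2d+/βgeo cells while the cells were still undifferentiated, and their courses then parted. Rnf180 stayed about as far below wild type on days 2 and 8, Epb41l4a kept a smaller difference, and St3gal6 came close to the wild-type level by day 8. By a log2 ratio of mean levels of at least 1, the name of the set, lower in Kmt2d+/βgeo, held on days 0, 2 and 8 for Rnf180 and Epb41l4a and on day 0 for St3gal6. The calls of Epb41l4a on days 2 and 8 lay at the threshold and were lost under another scaling of the cells. Smaller differences in the same direction were seen for Epb41l4a on day 4 and for St3gal6 on day 2. On day 4 Rnf180 was level between the genotypes (-0.0098) and St3gal6 slightly higher in Kmt2d+/βgeo (0.16). The day 4 library labelled Kmt2d+/βgeo resembled wild type over all genes, as set out below.

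Single cells were profiled with the 10x Genomics 3′ v3 kit, in which a unique molecular identifier (UMI) marks each captured RNA molecule near its 3′ end. C57BL/6J females were crossed with Kmt2d+/βgeo males, and dentate gyrus cells of their embryos, taken at embryonic day 18 per the labels and a day earlier per the study's methods, were expanded with EGF and FGF2. The 2 groups were Kmt2d+/βgeo, with the gene trap allele Mll2Gt(RRt024)Byg, and wild type, labelled C57Bl/6J and described as Kmt2d+/+ littermates. Cells of both were collected on day 0, with both growth factors present, and on days 2, 4 and 8 after the factors were taken away. There was 1 library for each genotype and day, 8 in all, with 30408 cells. With 1 library per genotype and day there was no replicate check within a day. A fit over the 4 days with genotype and day as terms was not run, since the genes were chosen by this difference, and a culture or an animal cannot be told apart from the genotype. Intervals here are 95% intervals for counting error only. An interval beside a log2 ratio or change is that of the pooled UMIs, and the printed value, from mean normalised counts, differed from the pooled one by at most 0.101 for ratios between genotypes and 0.201 for changes between days.

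Kmt2d encodes a histone H3 lysine 4 methyltransferase that acts mainly at enhancers, and loss of 1 copy in humans causes Kabuki syndrome. Rnf180 is a RING ubiquitin ligase anchored in membranes of the endoplasmic reticulum, known to mark the transcription factor Zic2 and monoamine oxidase A for breakdown. St3gal6 is a sialyltransferase of the Golgi that caps galactose at the ends of glycan chains with sialic acid in an α2,3 linkage. Epb41l4a belongs to the band 4.1 family, whose FERM domain binds membrane proteins. Hippocampal progenitors give rise to granule neurons and glia, and in culture the loss of EGF and FGF2 lets them stop dividing and differentiate.

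The day 4 library labelled Kmt2d+/βgeo stood apart from the other 3 of that label, and this has to be read before the values. Over all genes its mean log2 values had an r of 0.998 with the wild-type library of day 4. Of the 29 genes that differed in 1 direction by a log2 ratio of at least 1 on days 0, 2 and 8, all 29 lay nearer to the wild-type mean of days 2 and 8 in this library. The 2 day 4 libraries shared 2 cell barcodes, and the 28 pairs of libraries shared between 0 and 10. Its label could not be checked on Kmt2d itself, whose mean normalised count in Kmt2d+/βgeo and wild-type cells was 0.193 and 0.157 on day 0, 0.171 and 0.197 on day 2, 0.295 and 0.237 on day 4, and 0.290 and 0.241 on day 8. Kmt2d was thus no lower in 3 of the 4 libraries labelled Kmt2d+/βgeo, and no source used here gives how the 3′ tags lie to the trapped part of the gene. Median depth was between 3972 and 11230 UMIs per cell on the matrix genes, lowest in the Kmt2d+/βgeo library of day 8.

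Rnf180 (ENSMUSG00000021720) lies on the minus strand at chr13:105130001-105294815 of GRCm38, and St3gal6 (ENSMUSG00000022747) on the minus strand at chr16:58468125-58524243. Both are protein-coding, with 5 and 15 transcripts in the GENCODE annotation. The 250 bases upstream of the RefSeq transcript start nearest to the end of each gene model, which came from RefSeq on GRCm38.p6, are shown because these genes were lower together on day 0 and then diverged. They span chr13:105294486-105294735 for Rnf180 and chr16:58524254-58524503 for St3gal6, are written on the minus strand from 5′ to 3′, and have each CpG in capitals.
Rnf180: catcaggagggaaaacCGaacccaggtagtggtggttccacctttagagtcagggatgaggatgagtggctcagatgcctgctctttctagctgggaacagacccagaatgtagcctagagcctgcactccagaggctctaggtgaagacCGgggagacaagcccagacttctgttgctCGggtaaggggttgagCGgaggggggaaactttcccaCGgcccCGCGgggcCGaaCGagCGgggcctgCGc
St3gal6: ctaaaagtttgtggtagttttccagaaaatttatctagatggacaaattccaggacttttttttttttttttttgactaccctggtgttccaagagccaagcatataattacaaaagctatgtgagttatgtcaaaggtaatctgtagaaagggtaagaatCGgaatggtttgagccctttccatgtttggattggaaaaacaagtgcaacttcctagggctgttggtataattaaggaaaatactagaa
The Rnf180 sequence had a GC content of 60.4% and 11 CpGs, whereas the St3gal6 sequence had a GC content of 34.8% and 1 CpG. The medians over 32851 mouse promoters of the same length were 52.4% and 6, so the St3gal6 sequence lay near the low end of promoters for GC and that of Rnf180 at the 73.9 percentile. The Rnf180 start lay 330 bp inside the end of its gene model, so its printed sequence falls within the stated gene bounds. The St3gal6 start lay 10 bp beyond the end of its model, so that sequence falls outside. Each gene also has a further RefSeq start, inside the gene model. There the order was the other way round, with 42.4% GC and 4 CpGs for Rnf180 against 64.4% GC and 16 CpGs for St3gal6. Motifs were searched on both strands. The CCAAT box, named by its letters, was present in the St3gal6 sequence and absent from that of Rnf180, and it was present in 33.8% of all promoters. At the further starts this too was the other way round, with a CCAAT box upstream of that of Rnf180 and none upstream of that of St3gal6. Neither sequence held the letters TATAAA of a TATA box, which 12.4% of promoters hold. The letters GGGCGG of a GC box were also in neither, against 32.7% of promoters, and of the further starts that of St3gal6 had them. The cAMP response element, spelled TGACGTCA and present in 1.55% of promoters, was in neither. No motif searched was therefore present in both of the printed sequences. Epb41l4a was not matched in the promoter table.

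On day 0 the 3 genes were at 22.5% to 25.1% of the wild-type level in Kmt2d+/βgeo cells. The level used here is the mean normalised count, the UMIs of a gene per cell after every cell was scaled to the same total. Rnf180 had 0.137 in Kmt2d+/βgeo cells and 0.583 in wild-type cells, a log2 ratio of -2.09 (counting interval -2.18 to -1.96) or 4.25-fold higher in wild type. Epb41l4a had 0.0587 and 0.261, a log2 ratio of -2.15 (-2.36 to -2.03), or 4.45-fold. St3gal6 had 0.0821 and 0.328, a log2 ratio of -2.00 (-2.25 to -1.95), or 3.99-fold. In the order of all 7117 genes compared on day 0, meaning a mean of at least 0.1 in either library, Epb41l4a was the lowest, Rnf180 was at rank 2 and St3gal6 at rank 5. The genes between them were Gm49980 at -2.08 and 2210408F21Rik at -2.06. The genes just outside the lowest 5 were Cd109, a cell-surface protein anchored by a lipid, at -1.92, and St6galnac5, a sialyltransferase of brain gangliosides, also at -1.92. On day 0, 0.871% of genes were at or below a log2 ratio of -1, and all 3 genes were among them, as the choice of the genes required.

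Rnf180 was held apart between the genotypes on every day except day 4. Its mean normalised count in wild-type cells was 0.583, 0.714, 0.693 and 0.536 on days 0, 2, 4 and 8. In the libraries labelled Kmt2d+/βgeo it was 0.137, 0.192, 0.688 and 0.143 on the same days. The wild-type libraries thus stayed within a narrow range, while the Kmt2d+/βgeo libraries of days 0, 2 and 8 were all low and that of day 4 was at the wild-type level. The log2 ratio was -1.90 on day 2 (-2.03 to -1.81), -0.0098 on day 4 (-0.11 to 0.067) and -1.91 on day 8 (-2.12 to -1.68). From day 0 to day 8 the pooled log2 ratio differed by 0.18, with an interval of -0.066 to 0.42 that held 0. Ordered by CPM, the pooled UMIs of a gene per 1000000 UMIs on the matrix genes, Rnf180 was highest in wild type at day 2 with 83.7 and lowest in Kmt2d+/βgeo at day 0 with 15.6. Neighbours in that order whose counting intervals overlapped were wild type at day 2 (83.7), wild type at day 4 (81.7) and the day 4 library labelled Kmt2d+/βgeo (80.6), then wild type at days 0 and 8 (65.3 and 62.6), then Kmt2d+/βgeo at days 8 and 0 (16.9 and 15.6). Kmt2d+/βgeo at day 2 (22.2) overlapped neither of its neighbours.

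Epb41l4a (ENSMUSG00000024376) lies on the minus strand of chromosome 18, from 33796327 to 34006966 on GRCm38, is protein-coding and has 7 transcripts in the GENCODE annotation. The difference between the genotypes was smaller after day 0, with a lower wild-type level on days 2 to 8 and a higher Kmt2d+/βgeo level on day 8. In wild-type cells the mean normalised count was 0.261, 0.104, 0.133 and 0.202 on days 0, 2, 4 and 8. In the libraries labelled Kmt2d+/βgeo it was 0.0587, 0.0516, 0.116 and 0.101. Wild-type cells were therefore highest before withdrawal and lowest on day 2, and Kmt2d+/βgeo cells were low on days 0 and 2 and higher on day 8. The log2 ratio was -1.02 on day 2 (-1.33 to -0.85), -0.21 on day 4 (-0.43 to -0.0086) and -1.01 on day 8 (-1.26 to -0.70), or 2.02-fold and 2.01-fold higher in wild type on days 2 and 8. The pooled log2 ratio on day 8 was closer to 0 than that on day 0 by 1.21 (0.89 to 1.53). In CPM the level was 31.8 in wild type at day 0, 22.9 in wild type at day 8 and 15.7 in wild type at day 4, and these 3 did not overlap. The day 4 library labelled Kmt2d+/βgeo (13.5), wild type at day 2 (12.5) and Kmt2d+/βgeo at day 8 (11.6) followed, and from wild type at day 4 down to Kmt2d+/βgeo at day 8 each interval overlapped the next. Kmt2d+/βgeo at days 0 and 2 came last with 6.96 and 5.86, which overlapped each other.

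St3gal6 was higher on day 8 than on day 0 in both genotypes, with the larger increase in Kmt2d+/βgeo cells. Wild-type cells had mean normalised counts of 0.328, 0.513, 0.361 and 0.782 on days 0, 2, 4 and 8. The libraries labelled Kmt2d+/βgeo had 0.0821, 0.382, 0.404 and 0.737. The log2 change from day 0 to day 8 was 3.17 in Kmt2d+/βgeo cells and 1.26 in wild-type cells, and from pooled UMIs it was 3.33 (3.17 to 3.50) and 1.33 (1.24 to 1.42). From day 0 to day 2 the log2 change was 2.22 in Kmt2d+/βgeo cells against 0.65 in wild type. The log2 ratio between the genotypes was -0.42 on day 2 (-0.49 to -0.30), 0.16 on day 4 (0.042 to 0.28) and -0.086 on day 8, where the interval of -0.20 to 0.018 held 0. Without the day 4 libraries the order of the 3 remaining days was the same in both genotypes. In CPM St3gal6 was highest in wild type (91.0) and Kmt2d+/βgeo (85.4) at day 8, which overlapped, and lowest in Kmt2d+/βgeo at day 0 with 8.48, far below wild type at day 0 with 36.3.

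**Figure D1:**
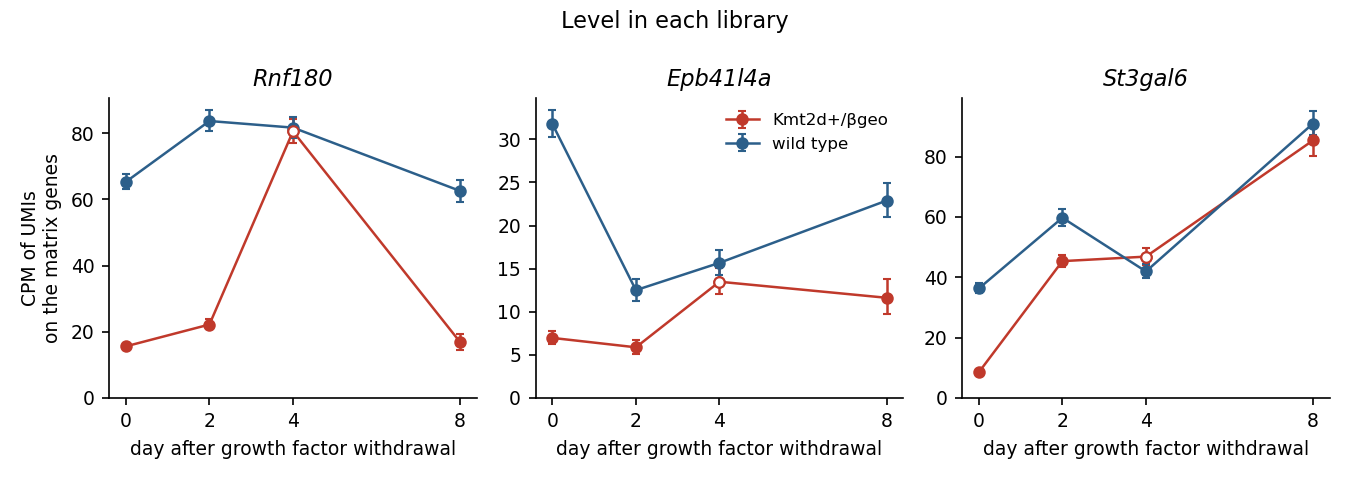
CPM of UMIs on the matrix genes (y axis) by day after growth factor withdrawal (x axis) for each gene, with 1 point per library and bars for the 95% Poisson interval of the UMI count. Red is Kmt2d+/βgeo, blue wild type, and the open circle is the day 4 library labelled Kmt2d+/βgeo, which sits at 80.6 for Rnf180 beside 81.7 in wild type.

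Set against all genes, the 3 genes differed in how far out they lay after day 0. On day 2, 1.15% of 7364 genes were lower by a log2 ratio of at least 1, and Rnf180 (rank 6 from the lowest) and Epb41l4a (rank 77) were among them while St3gal6 (rank 514) was not. On day 4 the share of such genes was 0%, with 0 of 7459 genes past that ratio, and none of the 3 genes was past it. On day 8, 2.81% of 7576 genes were lower, with Rnf180 at rank 16, Epb41l4a at rank 212 of the 213 called, and St3gal6 at rank 3036. Epb41l4a on days 2 and 8 was thus just inside the threshold, and from pooled UMIs its day 8 log2 ratio of -0.98 was just outside it. With cells scaled by the total UMIs of the cell table, its log2 ratios on days 2 and 8 were -0.95 and -0.98, so both calls were lost, and a pseudocount of 0.05 gave -0.60 and -0.74. The SD of the log2 ratio over all genes was 0.34, 0.38, 0.11 and 0.49 on days 0, 2, 4 and 8, so a given ratio lay further out on day 0 than on day 8. Rnf180 and Epb41l4a were among 12 genes that were lower by that much on days 0, 2 and 8 alike. The other 10 were Cd109, Cpe, Enpp2, Gm2115, Hrh1, Kcnj16, Meis2, Msra, Tagln3 and Trim2. The comparisons of different days use different libraries of both genotypes, but each day rests on 1 pair of libraries.

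**Figure D2:**
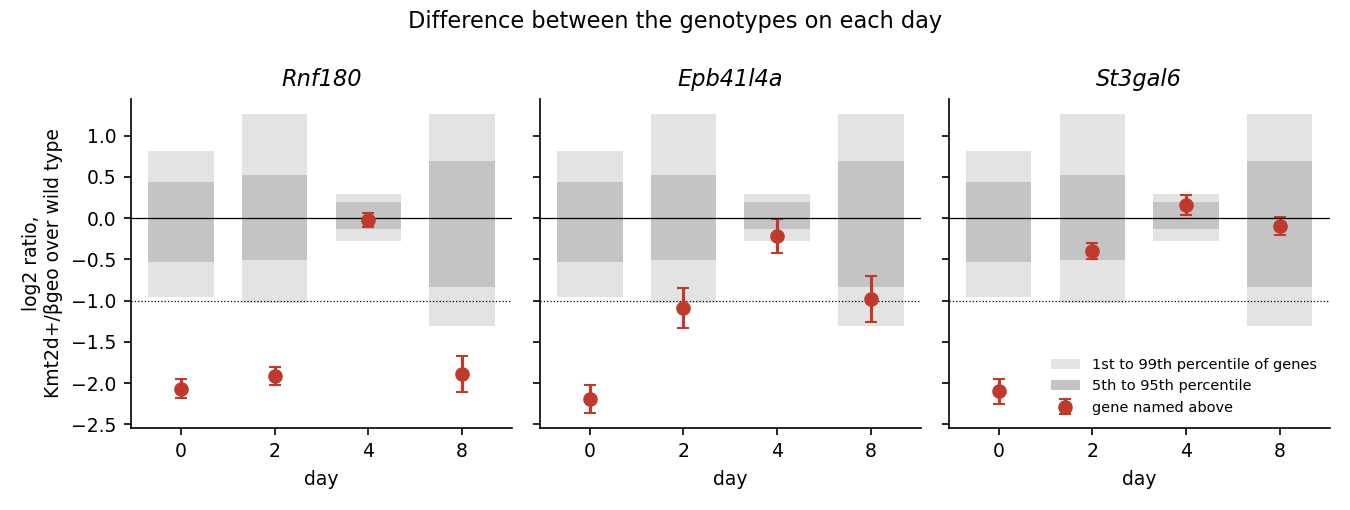
Log2 ratio of pooled UMIs, Kmt2d+/βgeo over wild type (y axis), on each day (x axis, days evenly spaced), with red points and 95% counting intervals for the gene named above each panel, and grey bars for the 1st to 99th and the 5th to 95th percentiles of the log2 ratios of mean normalised counts of all compared genes. Rnf180 lies below the grey bars on days 0, 2 and 8, and St3gal6 lies below them only on day 0; the dotted line marks -1.

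The share of cells with a UMI showed the same pattern at equal depth. Every cell was thinned at random to 3000 UMIs, and 809 of the cells of the Kmt2d+/βgeo library of day 8 and between 0 and 30 of the cells of each other library were too shallow and left out. A UMI of Rnf180 was then found in 4.42% of Kmt2d+/βgeo cells (exact binomial interval 3.82 to 5.08%) and 18.7% of wild-type cells (17.6 to 19.8%) on day 0. On day 2 the Rnf180 shares were 6.88% and 21.7%, on day 4 20.5% and 21.8%, and on day 8 4.55% and 17.6%. The difference on day 8 was -13.1 percentage points (-14.6 to -11.5), close to the -14.3 points of day 0. For Epb41l4a the shares in Kmt2d+/βgeo and wild-type cells were 1.81% and 8.42% on day 0, 1.88% and 3.83% on day 2, 4.30% and 4.67% on day 4, and 3.34% and 6.92% on day 8. For St3gal6 they were 2.56% and 9.61%, 11.7% and 15.2%, 12.0% and 10.6%, and 21.2% and 22.4%. Only Rnf180 and Epb41l4a kept a difference on day 8 whose interval left out 0, since that of St3gal6 was -1.18 points (-3.41 to 1.09). Without thinning, Rnf180 was detected in 15.7% and 47.9% of cells on day 0 and in 6.27% and 35.1% on day 8, where depth also differed. No cell type known to lack these genes was marked in the files, so the share that free RNA alone would give was not measured.

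The spread of UMIs over the thinned cells was read from the ratio of variance to mean, which is 1 for independent draws at 1 rate. This ratio was between 0.99 and 1.06 for Rnf180 in the 8 libraries and between 0.99 and 1.07 for Epb41l4a. It was between 1.04 and 1.18 for St3gal6, with the highest values in wild type at day 2 (1.18) and Kmt2d+/βgeo at day 8 (1.18). St3gal6 was thus above 1 in all 8 libraries, and in wild type at day 2 a UMI was found in 15.2% of cells where a Poisson spread at the same mean gives 16.4%. Among cells with an Rnf180 UMI on day 0, 4.21% had 2 or more in Kmt2d+/βgeo and 12.3% in wild type. Whether fewer cells express a gene or each cell holds less of its RNA was not tested.

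**Figure D3:**
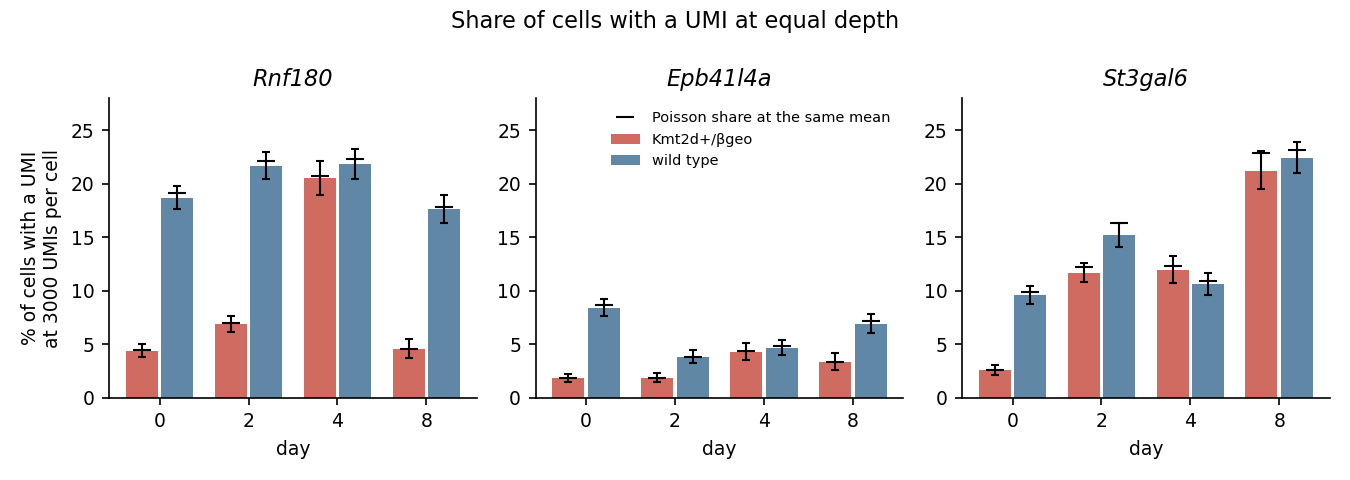
Percent of cells with a UMI after thinning every cell to 3000 UMIs (y axis) by day (x axis) in Kmt2d+/βgeo (red) and wild type (blue), with exact binomial 95% intervals. Black dashes give the Poisson share at the same mean, which lay inside the observed interval in 23 of 24 cases. At means this low that closeness says little about the spread.

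Within a library at 3000 UMIs per cell, the odds ratio for finding 2 of the 3 genes in the same cell had an interval that held 1 in all but 1 of 24 combinations of a pair and a library. Without thinning, where depth varies from cell to cell, all 24 odds ratios were above 1, from 1.03 to 1.75, and 14 of their intervals lay above 1. In thinned wild-type cells of day 0, 83 cells held both Rnf180 and Epb41l4a against 76.5 for independence, an odds ratio of 1.12 (0.87 to 1.44). For Rnf180 with St3gal6 there were 84 cells against 87.3, an odds ratio of 0.95 (0.74 to 1.22), and for Epb41l4a with St3gal6 39 cells against 39.3. Without thinning these 3 odds ratios were 1.42, 1.36 and 1.39. Pearson's r over thinned cells was at most 0.034 in any of the 24 combinations, and each library is 1 culture. In Kmt2d+/βgeo cells of day 0 the counts were small, with 1, 9 and 4 cells holding those pairs. The 9 cells with Rnf180 and St3gal6 stood against 4.86 for independence, an odds ratio of 2.07 (1.05 to 4.09), and this was the 1 interval that left out 1. No cell of that library held all 3 genes at 3000 UMIs, and 91.5% held none of them, against 67.4% in wild type. On day 8 the shares of cells with none were 72.9% and 59.3%. Genes with the highest r to 1 of the 3 over wild-type cells of day 0 reached only 0.0576 for Rnf180 (Mxd4), 0.0691 for Epb41l4a (Uqcrq) and 0.0662 for St3gal6 (1500009L16Rik), which in counts this sparse is no finding. Mt3, a metallothionein of astrocytes, had an r with St3gal6 of 0.064 there and between 0.077 and 0.14 in the other 7 libraries.

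Levels of the 3 genes were also compared between cells with and without a UMI of a lineage marker. Olig2, a transcription factor of oligodendrocyte precursors and of some progenitors, marked cells with less St3gal6 in 6 of 6 libraries of days 2 to 8. On day 2 a St3gal6 UMI was found in 9.27% of Olig2-positive and 14.6% of Olig2-negative Kmt2d+/βgeo cells, and in 13.8% and 17.9% of wild-type cells. On day 8 the shares were 16.0% and 22.9% in Kmt2d+/βgeo and 15.6% and 23.5% in wild type. The log2 ratio of the mean, positive over negative, ran from -1.12 to -0.36 in those 6 libraries, and all 6 counting intervals lay below 0. On day 0 it was 0.18 in Kmt2d+/βgeo and 0.13 in wild type, with intervals that held 0. Sox9, a factor of neural stem cells and astrocytes, marked cells with more St3gal6 in 8 of 8 libraries at 3000 UMIs, with an interval above 0 in 4 of them. The Sox9 log2 ratio was 0.50 and 0.35 on day 2, 1.18 and 0.12 on day 4, and 0.58 and 0.040 on day 8 for Kmt2d+/βgeo and wild type. Without thinning it was 0.74 and 0.46 on day 2, 1.71 and 1.26 on day 4, and 0.71 and 1.06 on day 8, so the gap between the genotypes was smaller on day 4 and turned round on day 8. On day 0 it was 0.32 and 0.14 with thinning, and 0.10 and -0.011 without. Over 11 markers tried, 22 of 69 intervals left out 0 for St3gal6, 4 of 69 for Rnf180 and 5 of 69 for Epb41l4a, but Epb41l4a had the fewest UMIs and the difference between genes was not tested. Among 69 intervals at 95%, a few leave out 0 where there is no difference. Nothing is therefore read from the counts of Rnf180 and Epb41l4a, and the values of both given below were picked from those comparisons. Epb41l4a was higher in Sox9-positive cells in 6 of 6 libraries of days 2 to 8, with log2 ratios from 0.0048 to 1.33, and 1 of these intervals lay above 0. That was the day 4 library labelled Kmt2d+/βgeo, where 5.23% of Sox9-positive and 2.04% of Sox9-negative cells had an Epb41l4a UMI, a log2 ratio of 1.33 (0.56 to 2.09). Without thinning the Sox9 ratio of Epb41l4a was 0.18 and 0.25 on day 2, 1.40 and 0.81 on day 4, and 0.50 and 1.27 on day 8 for Kmt2d+/βgeo and wild type. On day 0 it was -0.22 and -0.063 with thinning, where both intervals held 0, and 0.39 and 0.055 without. In the day 4 library labelled Kmt2d+/βgeo the Olig2 log2 ratio of Epb41l4a was -1.29 (-2.04 to -0.55), and -0.61 without thinning. With Apoe the Epb41l4a ratio was -0.51 in wild type at day 0 (-0.78 to -0.24), and -0.38 without thinning. For Rnf180 the ratio in Olig2-positive over Olig2-negative cells lay between -0.63 and 0.17 and no interval left out 0. For Rnf180 the interval furthest from 0 was in wild type at day 0, where 16.0% of the Top2a-positive (dividing) cells and 20.1% of the others had a UMI, a log2 ratio of -0.38 (-0.57 to -0.18).

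**Figure D4:**
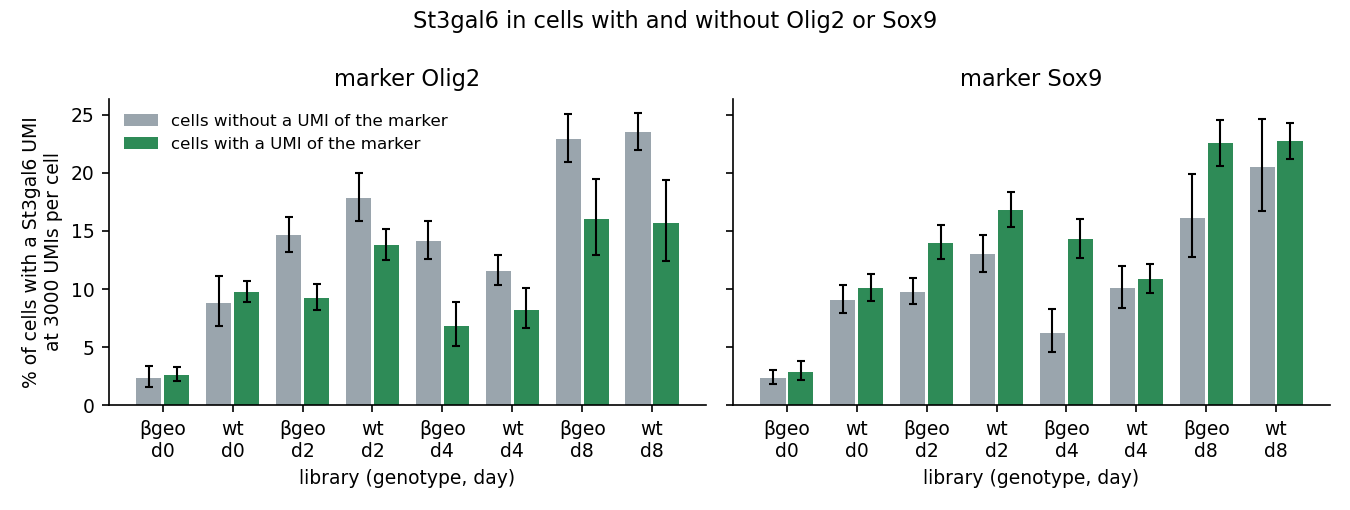
Percent of cells with a St3gal6 UMI at 3000 UMIs per cell (y axis) among cells with (green) and without (grey) a UMI of Olig2 or Sox9, in each library (x axis, βgeo for Kmt2d+/βgeo, wt for wild type, d for day), with exact binomial 95% intervals. From day 2 on, the Olig2-positive cells are lower than the Olig2-negative cells in every library.

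The levels of several marker lists differed between days in the same libraries, and cells were not given types. The astrocyte list had 6 of its 9 genes in the matrix (Apoe, Gja1, S100b, Aldh1l1, Slc1a2 and Slc1a3), and the sum of their mean normalised counts was 24.2 in Kmt2d+/βgeo and 17.8 in wild type on day 0, 228.4 and 181.4 on day 2, 267.3 and 247.2 on day 4, and 109.5 and 250.04 on day 8. Gfap, Aqp4 and Aldoc were not among the genes of the matrix. Olig2, the 1 gene of the oligodendrocyte lineage list in the matrix, was at 5.53 and 8.09 on day 0 and at 1.48 and 0.911 on day 8. The sum of the 4 cycling genes was 8.56 and 7.52 on day 0 and between 0.973 and 1.25 later. Apoe made up most of the astrocyte sum from day 2 on, and on day 0 it had 14.1 in Kmt2d+/βgeo and 5.88 in wild type. Without Apoe, an alternative chosen after seeing the data, the sum of the other 5 genes was 10.1 and 12.0 on day 0, 18.7 and 31.7 on day 2, 23.6 and 22.8 on day 4, and 14.8 and 19.998 on day 8, so on days 0 and 2 its direction was opposite to that of the whole list. The 5 progenitor genes in the matrix summed to 72.9 in Kmt2d+/βgeo and 61.4 in wild type on day 0, 129.04 and 96.6 on day 2, 77.1 and 74.3 on day 4, and 68.1 and 110.8 on day 8. Of these, Sox9 was lower in Kmt2d+/βgeo on days 0 and 2, at 1.61 and 2.72 and at 1.98 and 2.93. Fabp7 was higher on those days, at 34.6 and 27.02 and at 43.5 and 41.2. On day 8 Fabp7 was at 15.02 and 15.5 and Sox9 at 7.16 and 6.91, so neither held the day 8 gap of the sum. The sum of the 3 neuronal genes in the matrix lay between 3.07 and 4.46 in the 8 libraries. Of the single markers, Luzp2 and Irx5 were higher in Kmt2d+/βgeo on days 0, 2 and 8, with log2 ratios of 5.12, 5.60 and 5.51 and of 2.32, 3.22 and 2.97. Hopx was at 1.76 on day 8 and Gja1 at -1.26 on day 2. Rbfox3, Top2a and Apoe were at 1.26, -1.15 and -1.28 on day 8, and Apoe was at 1.26 on day 0. The part of culture make-up in the levels of the 3 genes was not tested. None of the microglial, endothelial, fibroblast or mural markers listed was in the matrix, so these cells could not be looked for.

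The genes whose levels over the 8 libraries most resembled that of each of the 3 differed from one to the next. Likeness was Pearson's r of log2(mean normalised count + 0.01) over the 8 libraries, 8079 genes were compared, and the libraries share cultures and genotypes. For Rnf180 these were Frmd4b (0.988), Ppp1r21 (0.984), Ccdc141 (0.978), Kcnj16 (0.961) and Tle4 (0.959). Frmd4b, a FERM-domain scaffold of cell junctions, was lower on days 0, 2 and 8 with log2 ratios of -1.10, -1.04 and -0.99. Kcnj16, a potassium channel subunit of glia, had -1.39, -1.74 and -2.49, and Tle4, a co-repressor of transcription, had -0.81, -0.88 and -0.85. Ccdc141 had -0.98, -1.53 and -1.44, whereas Ppp1r21 had only -0.34, -0.41 and -0.30. All 5 had an absolute log2 ratio of at most 0.18 on day 4, as Rnf180 had. So had most genes on that day, whose 5th and 95th percentiles were -0.13 and 0.20. For Epb41l4a they were Selenoo (0.915), Colgalt2 (0.912), Zbtb7a (0.907), Tmem245 (0.903) and Rab10os (0.896), most of which spanned a far smaller range than Epb41l4a. Of these Colgalt2, a collagen galactosyltransferase, came nearest in size, with log2 ratios of -1.34, -0.92 and -0.90 on days 0, 2 and 8. Its day 2 means, 0.049 and 0.092, were below the minimum of 0.1 used for comparisons. For St3gal6 they were Fbxl4 (0.963), Snx10 (0.956), Pramef8 (0.955), Cdip1 (0.953) and Nsun3 (0.952). Their day 0 log2 ratios were between -0.70 and -0.32, the lowest being that of Fbxl4, whose means were below 0.1 in both libraries. None of these 5 was among the first 5 for St3gal6 by Spearman's rho or without both day 4 libraries, so this list rests on the measure and on those libraries. By the same changes 1 and 3 of the 5 were kept for Rnf180 and 3 and 2 for Epb41l4a. Between the 3 genes themselves r was 0.67 for Rnf180 and Epb41l4a, 0.43 for Epb41l4a and St3gal6, and 0.34 for Rnf180 and St3gal6. From the highest r down, Rnf180 was at rank 98 for Epb41l4a, and Epb41l4a at rank 420 for Rnf180. St3gal6 was at rank 708 for Epb41l4a and 2049 for Rnf180. For St3gal6, Epb41l4a was at rank 3006 and Rnf180 at rank 3331.

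**Figure D5:**
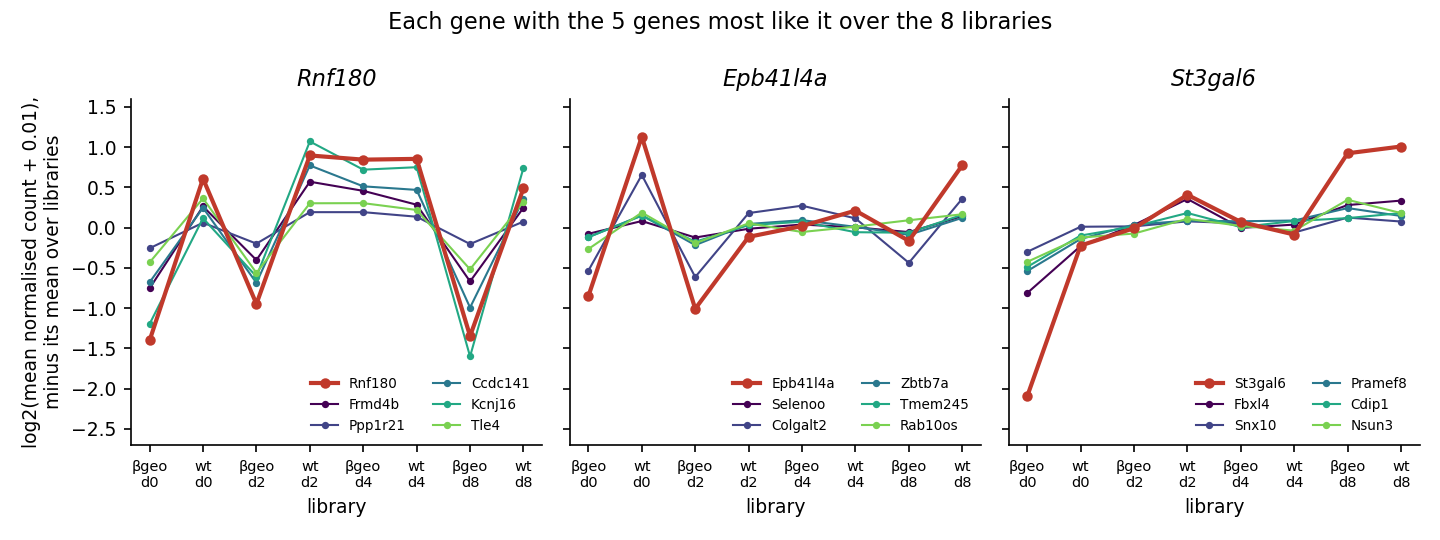
Log2(mean normalised count + 0.01) minus its mean over the libraries (y axis) in each library (x axis, βgeo for Kmt2d+/βgeo, wt for wild type, d for day) for each gene (thick red) and the 5 genes with the highest Pearson's r to it. The Rnf180 set is low in Kmt2d+/βgeo on days 0, 2 and 8, Ppp1r21 by far less than Rnf180, and St3gal6 is lowest in Kmt2d+/βgeo on day 0.

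The genes that lie beside the 3 differed in how they moved. Within 500 kb of Rnf180 the matrix holds 3 other genes. Rgs7bp, which anchors a regulator of G protein signalling to the membrane and lies 75071 bp away, had log2 ratios of -1.02, -1.16, 0.062 and -0.91 on days 0, 2, 4 and 8. Its mean normalised count in wild type was 0.533, 0.472, 0.399 and 0.242, and in the Kmt2d+/βgeo libraries 0.263, 0.212, 0.417 and 0.129. Rgs7bp was thus lower on the same days as Rnf180, with a smaller log2 ratio on each, whereas Cwc27 was at 0.19, 0.27, 0.032 and -0.75 and Srek1ip1 at 0.088, -0.61, -0.11 and -0.56. All 3 neighbours of Rnf180 were thus below 0 on day 8, with a median of -0.75 beside 0.011 over all genes, and 2 of the 3 were below 0 on day 2. Of 8 genes near Epb41l4a, 6 had a mean high enough to compare, and 0 of the 6 passed a log2 ratio of 1 in either direction on any day, where at most 2.81% of all genes were lower, so nothing is read from that count. Their median log2 ratio was 0.16 on day 0 and 0.23 on day 8, beside -0.037 and 0.011 over all genes. The nearest, the noncoding Epb41l4aos on the opposite strand, ends 341 bp from the 3′ end of Epb41l4a and had -0.35, -0.56, -0.29 and 0.14. Apc, a scaffold that promotes the breakdown of β-catenin, was at -0.45, -0.58, 0.054 and -0.11. Near St3gal6 the matrix holds Dcbld2 and Cpox. Dcbld2 runs on the opposite strand and shares its last 1603 bp with the 3′ end of St3gal6. No source used here says whether counting used strand, and how reads in that stretch were assigned was not checked. Dcbld2 had mean normalised counts of 0.157 in Kmt2d+/βgeo and 0.145 in wild type on day 0 and of 0.306 and 0.225 on day 8, so it did not share the day 0 difference of St3gal6.

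Among other genes of the same families, several of the sialic acid list passed a log2 ratio of 1, in both directions, and on day 0 most genes of the other 4 lists lay below 0. Over all genes on days 0, 2 and 8, 0.871%, 1.15% and 2.81% were lower and 0.674%, 1.68% and 2.06% higher past that ratio, and 55.5%, 50.4% and 48.8% had a log2 ratio below 0. Of 30 genes that make, attach, transport or remove sialic acid, 16 were in the matrix, and St3gal6 aside 11 could be compared on day 0, 9 on day 2 and 10 on day 8. On day 0, 1 of the 11 was lower and 1 higher by a log2 ratio of at least 1, with 3 below 0 and a median of 0.069 beside -0.037 over all genes. On day 2, 1 of 9 was lower and 2 higher, and on day 8, 2 of 10 were lower and 0 higher. The shares that were lower on these days, and higher on days 0 and 2, lay above those of all genes, each from 1 or 2 genes. On day 0 the lower gene was St6galnac5 (-1.92) and the higher was St8sia2, the polysialic acid synthase of immature neurons, at 1.25 and again at 1.48 on day 2. St3gal5, which makes the ganglioside GM3, was at 0.87 on day 0 and 1.08 on day 2. Npl, which breaks down free sialic acid, was at -1.17 on day 2 and -1.48 on day 8, and St3gal1, which sialylates O-linked glycans, was at -1.45 on day 8. Cmas and Slc35a1, which activate sialic acid and carry it into the Golgi, were at 0.068 and 0.069 on day 0. St3gal4, whose acceptors overlap those of St3gal6, was at 0.96, 0.11, 0.045 and 0.67, so it stood higher in Kmt2d+/βgeo on day 0 where St3gal6 was lower. Of 10 genes for the acceptor glycans compared on days 0 and 2, 0 passed that ratio, although 8 were below 0 on day 0 with a median of -0.22, and of 12 compared on day 8 the 1 that did was Mgat4a, a branching enzyme of N-glycans, at 1.12. Fut9, which adds fucose to such acceptors and had the highest mean of that list, was at -0.45 on day 0 and 0.21 on day 8.

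Among 18 FERM-domain genes other than Epb41l4a compared on day 0, 1 was lower and 0 higher past the ratio, against 0.871% and 0.674% of all genes. Of the 18, 14 were below 0, with a median of -0.11 beside -0.037 over all genes. That gene was Frmd4b (-1.10), which was also the 1 lower on day 2 (-1.04). On day 8, 1 of 20 was lower, Ezr, which links the cortex to actin, at -1.07. The genes with the highest means, Fermt2, Msn and Rdx, were at -0.0077, -0.12 and 0.018 on day 0. The close relatives Epb41l2 and Epb41l5 were at -0.09 and -0.18 on day 0, -0.033 and -0.37 on day 2, and -0.13 and 0.01 on day 8. Epb41 was at -0.35 on day 0, and Epb41l4b at -0.25 on day 2 and 0.26 on day 8. For Rnf180, 0 of 10 genes for its substrates and ubiquitin-conjugating partners and 0 of 19 other membrane RING ligases passed the ratio on day 0. Of these, 9 of 10 and 15 of 19 were below 0, with medians of -0.21 and -0.29 beside -0.037 over all genes. On day 8, 3 of 9 and 6 of 18 were below 0, with medians of 0.29 and 0.11 beside 0.011. The ubiquitin-conjugating enzyme genes Ube2d3, Ube2e3 and Ube2e1 were at -0.17, -0.20 and -0.19 on day 0, and the ligase Rnf13 at -0.33. The substrates Zic2 and Maoa were at -0.29 and 0.04 on day 0 and at -0.96 and -0.38 on day 8. Rnf182, the ligase gene nearest to passing on day 8, was at 0.64, so 0 of 18 passed on day 8 as well. Over all genes 2.81% were lower and 2.06% higher past the ratio on day 8, so nothing is read from these counts of 0.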

How the data were processed

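The authors quantified spliced counts with alevin (Salmon 1.3.0) on GRCm38, removed outlier cells, including those with outlying doublet scores, and dropped mitochondrial and rarely detected genes. The deposited matrix holds their log2 values of library-size normalised counts plus 1, and the deposited cell table gives total UMIs as the authors' estimated counts. Values were turned back to normalised counts, which summed to 8707.1 in every cell. The most frequent nonzero value of each cell stood for 1 UMI, and 86.8% of nonzero values were then within 0.01 of a whole UMI. Rounded UMIs were pooled or thinned without replacement to 3000. Genes with a mean of at least 0.1 in either library were compared, and a log2 ratio of at least 1 in size was the threshold. Intervals are exact binomial for shares, Poisson for CPM, and exact conditional for pooled log2 ratios and changes. Those for differences of shares are Newcombe intervals from Wilson bounds, and those for odds ratios are Woolf intervals. Normal approximations from UMI counts were used for the change of a pooled ratio between days and for marker-positive over marker-negative cells. Steps were tested on simulated data. Genes named were the members, the lowest 5 on day 0, the 5 most like each member, those within 500 kb, and list members past the threshold, with up to 3 others. St3gal4, Epb41, Epb41l2, Epb41l4b, Epb41l5, Zic2, Maoa and Rnf182 were chosen after their values were seen. Members and lists were chosen with earlier results of these data known. Python 3.11.15, numpy 2.4.6 and scipy 1.17.1 were used.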

Additional observations from a re-analysis of the deposited data

Results flagged for a closer look

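The Rnf180 and Epb41l4a changes were picked out because the genotypes moved in opposite directions from day 0, and the St3gal6 ratio because its sign was opposite to that on its other days. With 1 library per genotype and day these differences were not tested, and the intervals are those of the pooled UMIs. Rnf180 had a log2 change from day 0 to day 8 of 0.059 in Kmt2d+/βgeo and -0.12 in wild type, and the counting intervals of both (-0.12 to 0.34 and -0.15 to 0.027) held 0. Epb41l4a had a log2 change from day 0 to day 8 of 0.78 in Kmt2d+/βgeo (0.44 to 1.03) and -0.37 in wild type, where pooled UMIs gave -0.47 (-0.62 to -0.33). From day 0 to day 4 the Epb41l4a change was 0.98 and -0.97, which rests on the day 4 library labelled Kmt2d+/βgeo. St3gal6 had a log2 ratio of 0.16 on day 4, opposite in sign to its other days, in that same pair of libraries.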

How the results depend on the processing

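All 12 log2 ratios between the genotypes kept their value within counting error when UMIs were pooled, when cells were scaled by the total UMIs of the cell table, and when the 5% of cells with most UMIs were left out, but Epb41l4a fell short of the threshold on day 8 with pooled UMIs (-0.98) and on days 2 and 8 with the cell table's totals (-0.95 and -0.98). Other values turned in sign. The log2 change of Epb41l4a from day 0 to day 2 in Kmt2d+/βgeo was -0.19, with a pooled interval of -0.49 to -0.0022, and 0.047 after thinning to 3000 UMIs. Without thinning, 10 of 24 odds ratios of co-detection crossed 1 and 59 of 205 log2 ratios between marker-positive and marker-negative cells changed sign. Of these, 8 had lain further out than the counting error of 1 count alone (the cells with both genes, or the UMIs in the marker-positive cells), though none had a full interval that left out no difference. They became 1.195 for the odds ratio of Rnf180 and St3gal6 in the day 4 library labelled Kmt2d+/βgeo, 0.111 and -0.197 for Epb41l4a with Apoe and Olig2 in Kmt2d+/βgeo at day 0, -1.31 and -0.167 with Fabp7 in Kmt2d+/βgeo at day 2 and wild type at day 4, 0.010 for Rnf180 with Map2 in that day 4 library, and -0.207 and -0.0099 for St3gal6 with Apoe in Kmt2d+/βgeo at day 0 and Fabp7 in wild type at day 8. The full intervals for these comparisons were set after the data were seen. Another 3 odds ratios and 12 marker ratios moved by more than their intervals, those of St3gal6 with Sox9 in wild type at days 4 and 8 among them, and the cause was not tested. After thinning to 3000 UMIs, the Rnf180 log2 ratio was -2.21 on day 0 and -0.12 on day 4, and the log2 changes from day 0 were 0.65 for Rnf180 in Kmt2d+/βgeo to day 2, 1.29 for Epb41l4a in Kmt2d+/βgeo to day 4 and 0.78 for St3gal6 in wild type to day 2. A pseudocount of 0.05, which pulls low values towards 0 by its construction, gave log2 ratios of -1.76, -1.66 and -1.60 for Rnf180 on days 0, 2 and 8, -1.52 and -0.60 for Epb41l4a on days 0 and 2, and -1.52 for St3gal6 on day 0. With it the log2 change from day 0 in Kmt2d+/βgeo was 1.98 for Rnf180 to day 4, 0.61 and 0.47 for Epb41l4a to days 4 and 8, and 1.71, 1.78 and 2.58 for St3gal6 to days 2, 4 and 8. In wild type it was -1.01 and -0.76 for Epb41l4a to days 2 and 4, and 1.14 for St3gal6 to day 8. Genes lower past the threshold on day 0 numbered 104 with a minimum mean of 0.02, 15 with 0.5 and 29 with the pseudocount. On day 2 they numbered 46 with 0.5 and 51 with the pseudocount, and on day 8 112 and 128. Of the 5 genes most like each member, Spearman's rho kept 1 for Rnf180, 3 for Epb41l4a and 0 for St3gal6. Leaving out both day 4 libraries kept 3, 2 and 0, and leaving out the day 4 library labelled Kmt2d+/βgeo kept 3 for St3gal6. Shares of cells moved with thinning to 1500 or 5000 UMIs or without thinning, in 24 of 24 cases each, since a share depends on depth by construction. A fit with day as a term was not run on genes chosen by the contrast. Depth limits Epb41l4a most, with 135 UMIs in the Kmt2d+/βgeo library of day 8.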
